A study of Homo sapiens with 6 samples.

Results

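The subunits of activator protein 1 (AP-1) were examined at the level of their transcripts in A549 cells, an established line from a human lung adenocarcinoma. The 9 genes are FOS, FOSB, FOSL1 and FOSL2 of the FOS family, JUN, JUNB and JUND of the JUN family, and the related ATF3 and BATF3. They were chosen by gene name from the 58735 genes of the count table, and all 9 were among the 15754 genes with enough counts to be tested. RNA-seq counts came from 3 libraries of A549 cells with a lentiviral vector carrying IL17D (IL17D cells) and 3 libraries of A549 cells with the empty vector (control cells). Both groups grew in the same medium with serum, neither received a further treatment, and both carry the lentiviral backbone, in which a human PGK promoter drives the insert together with GFP. IL17D encodes a secreted cytokine of the interleukin-17 family. The sources used here do not say whether the libraries within a group stem from separate cultures, so the p-values measure the spread between these libraries, which may be technical. The comparison asks which AP-1 genes differ when A549 cells make IL17D.

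AP-1 is a dimer of basic leucine zipper (bZIP) proteins that binds a short palindromic DNA element known as the TPA response element (TRE). FOS proteins cannot pair with each other and need a JUN partner, whereas JUN proteins form pairs among themselves or with FOS or ATF proteins. FOS, FOSB, JUN and JUNB are immediate early genes, whose transcripts rise and fall quickly after growth factors, cytokines or stress act through MAP kinases. FOSL1 and FOSL2 usually follow later and last longer, and JUND is made steadily in most cells. In airway epithelium and lung cancer, AP-1 drives genes of inflammation, invasion and repair.

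Total counts on genes ranged from 14434394 to 16250385 in the control libraries and from 14319398 to 16521021 in the IL17D libraries. Values are CPM, the counts scaled to a common library total, after TMM adjustment of the library sizes, with the standard deviation (SD) of 3 libraries, and fold changes come from edgeR's quasi-likelihood test over all tested genes. IL17D had 1.24 to 2.11 CPM in the control libraries and 1880 to 1960 CPM in the IL17D libraries, so each library matched its label. The epithelial keratins KRT8 and KRT18 were abundant in every library, at 7200 CPM or more for KRT8. The epithelial marker EPCAM was low, at 0.622 to 1.31 CPM from 9 to 21 counts per library. The marker KRT19 (0.185 to 0.669 CPM) was close to the limit of 0.182 to 0.210 CPM that 3 counts give. The adhesion gene CDH1 fell, from 40.9, 43.1 and 46.2 CPM in the control libraries to 32.4, 35.6 and 39.0 CPM in the IL17D libraries (adjusted p = 0.0306 from edgeR), and its part in the AP-1 results was not tested. Of 6 markers of other cell types, PTPRC and CD3E had no count in any library, PECAM1 and CD79A stayed at or below 0.554 CPM, CD14 stayed at or below 1.22 CPM, and the collagen gene COL1A1 had 19.2 to 24.2 CPM. Mitochondrially encoded genes took 6.85% to 7.25% of the counts in control libraries and 6.88% to 7.36% in IL17D libraries.

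FOSL2 and FOSL1 rose by a small fold in IL17D cells, and JUND was the gene of the 9 whose estimate lay below 0. Of the 9 genes, 8 had a log2 fold change above 0, against 49.9% of all tested genes, and the median of the 9 was 0.21, against -0.00044 over all tested genes. FOSL2 and FOSL1 passed at an adjusted p under 0.05 (edgeR, Benjamini-Hochberg over all tested genes), a call made for 0.673% of tested genes in this direction. None of the 9 fell, a call made for 0.908% of all tested genes, and none of the 9 was lower at an unadjusted p under 0.05 either. With DESeq2 and limma voom, 0 of the 9 fell as well. At an unadjusted p under 0.05, 5 of the 9 were higher (FOSL2, FOSL1, JUNB, JUN and ATF3), against 5.59% of all tested genes. In the same 5 genes all IL17D libraries lay above all control libraries, a separation shown by 7.48% of all tested genes. Without control replicate 2 or without IL17D replicate 1, the 2 called genes became 1, because FOSL1 no longer passed. In bulk RNA, more transcript per cell and more cells with the transcript cannot be told apart.

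**Figure D1:**
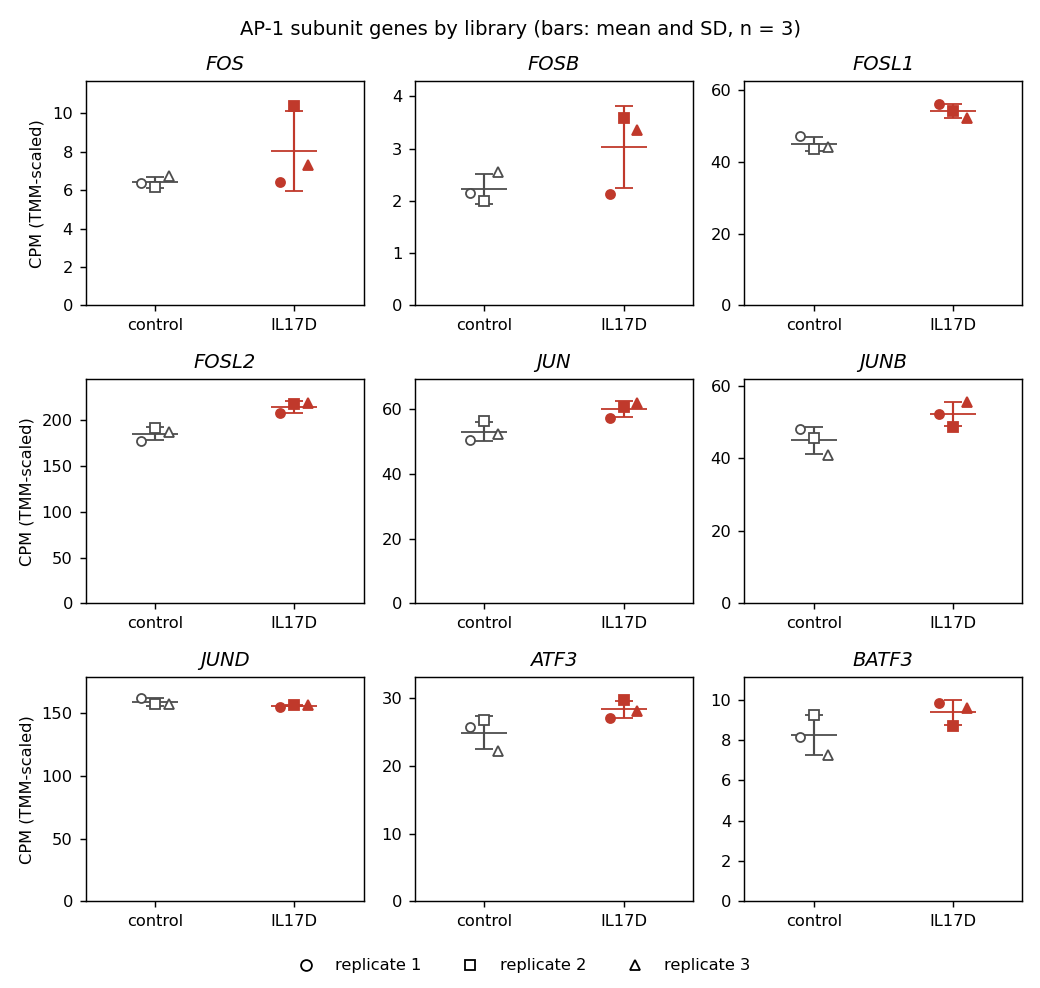
TMM-scaled CPM of the 9 AP-1 subunit genes in each of the 3 control (open) and 3 IL17D (filled) libraries, with replicates by symbol and the mean and SD of each group as bars; every vertical axis starts at 0. FOSL1, FOSL2, JUN, JUNB and ATF3 are separated between the groups, the last 3 by narrow gaps. FOS and FOSB overlap because IL17D replicate 1 sits at the control level. BATF3 overlaps as well, and the IL17D libraries of JUND lie just below its control libraries.

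**Figure D2:**
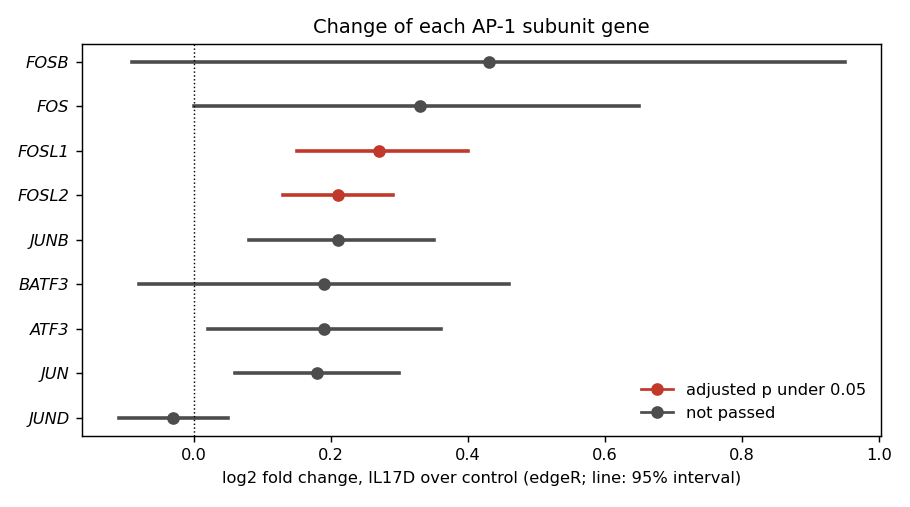
Log2 fold change of each AP-1 subunit gene, IL17D over control, with its 95% interval from edgeR, on a horizontal axis in log2 units. FOSL1 (0.27) and FOSL2 (0.21) passed at an adjusted p under 0.05, and the interval of JUND runs from -0.11 to 0.05.

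FOSL2 (ENSG00000075426, chr2:28392448-28417312 on hg38) encodes FRA2, a FOS protein without a strong activation domain of its own. It had 177, 191 and 187 CPM in control replicates 1, 2 and 3 and 207, 217 and 218 CPM in IL17D replicates 1, 2 and 3. The highest control library lay below the lowest IL17D library. Group means were 185 ± 7.55 CPM and 214 ± 6.17 CPM (SD, n = 3 each), a rise of 0.21 on the log2 scale with a standard error of 0.040 (edgeR, adjusted p = 0.00151). This call was kept under all 12 alternatives, with adjusted p-values from 9.36e-05 to 0.0247 in edgeR, DESeq2 and limma. A pair of short non-coding genes overlap it, FLJ31356 on the other strand and AC104695.3 in an intron, with at most 9 counts in any library.

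FOSL1 (ENSG00000175592, chr11:65892049-65900573) encodes FRA1, the FOS protein most often tied to invasive epithelial cancer. It had 47.0, 43.5 and 44.2 CPM in the control libraries and 56.1, 54.1 and 52.2 CPM in the IL17D libraries, in replicate order. The groups did not overlap, and the spread within each group was close to counting error, with a coefficient of variation (CV) of 4.08% in control and 3.60% in IL17D libraries against 3.78% and 3.42% from counting alone. On the log2 scale the rise was 0.27 with a standard error of 0.061 (edgeR, adjusted p = 0.0105), a fold of 1.21 with a 95% interval of 1.11 to 1.31. With control replicate 2 left out the adjusted p from edgeR became 0.0727, and with IL17D replicate 1 left out it became 0.0937. Of the 31-base stretches in its transcripts, 6.86% also occur in other genes, chiefly the pseudogene FOSL1P1, which had 0 to 4 counts per library.

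The promoters of FOSL2 and JUND are shown because these genes, the most abundant FOS and JUN transcripts, differed in their change. Both run from 250 bases before to 50 bases after the RefSeq start site on GRCh38.p14, are written on the gene's own strand, and carry in capitals every match to the searched motifs. FOSL2 (chr2:28392608-28392907, plus strand) holds 1 match to the TRE (TGANTCA), whose leftmost base is at +5 from the start site, and 1 GC box (GGGCGG). JUND (chr19:18281573-18281872, minus strand) holds no TRE, 1 match to the cyclic AMP response element (CRE, TGACGTCA), which begins at -200 from the start site, and 6 GC boxes.
FOSL2: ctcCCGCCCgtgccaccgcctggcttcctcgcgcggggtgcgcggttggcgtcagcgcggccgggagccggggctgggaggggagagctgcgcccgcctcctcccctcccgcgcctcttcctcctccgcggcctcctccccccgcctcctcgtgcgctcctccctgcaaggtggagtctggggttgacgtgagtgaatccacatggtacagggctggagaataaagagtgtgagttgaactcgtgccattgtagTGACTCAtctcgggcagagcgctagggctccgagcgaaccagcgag
JUND: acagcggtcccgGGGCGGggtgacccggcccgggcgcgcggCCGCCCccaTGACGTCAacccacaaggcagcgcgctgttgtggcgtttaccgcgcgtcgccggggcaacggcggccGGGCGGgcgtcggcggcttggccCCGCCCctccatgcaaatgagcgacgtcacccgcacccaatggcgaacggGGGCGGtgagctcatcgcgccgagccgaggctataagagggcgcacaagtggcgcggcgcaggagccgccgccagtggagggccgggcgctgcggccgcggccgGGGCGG

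Motifs were searched on both strands. Of all 35116 promoters in the RefSeq table, 7.71% held a TRE, 1.85% a CRE and 45.0% a GC box. In 7 of the 9 genes a promoter was matched by symbol, and the TRE of FOSL2 was the only TRE and the CRE of JUND the only CRE among them. The promoters of JUN, JUNB and ATF3, which were higher at an unadjusted p under 0.05 (edgeR), held no match to TGANTCA. Variants of this element were not searched. A part of these motifs in the changes was not tested. An E-box (CACGTG, in 7.26% of all promoters) and the CArG box bound by serum response factor (in 1.29%) had no match in these windows, which says only that these letters are not there. FOSL1 and BATF3 were not matched. The FOSL2 window lies inside the gene as the count table draws it, on chromosome 2 from 28392448 to 28417312.

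FOS and FOSB, the classical serum-responsive members, were the least abundant of the 9 genes and, in IL17D libraries, the most variable. FOS (ENSG00000170345, chr14:75278774-75282230) had 6.40, 6.15 and 6.72 CPM in the control libraries and 6.44, 10.4 and 7.29 CPM in the IL17D libraries. IL17D replicate 2 stood apart, while IL17D replicate 1 lay within the control range. The CV of FOS was 4.39% in control libraries and 25.9% in IL17D libraries, where counting error alone gives 9.98% and 8.87%. The difference of 0.33 on the log2 scale had a standard error of 0.16 and did not pass (edgeR, adjusted p = 0.433), and the 95% interval of the fold ran from 0.999 to 1.57. Without IL17D replicate 2 the log2 fold change was 0.09.

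FOSB (ENSG00000125740, chr19:45467995-45475179) had 2.15, 2.0 and 2.55 CPM in the control libraries and 2.13, 3.59 and 3.36 CPM in the IL17D libraries, from 29 to 59 counts each. The groups overlapped through IL17D replicate 1. Its log2 fold change of 0.43 was the largest of the 9 genes and also the least certain (standard error 0.26, adjusted p = 0.564 from edgeR). The 95% interval of the fold ran from 0.940 to 1.93, and the CV in IL17D libraries was 26% against 14.5% from counting alone. FOSB lies within the span of the antisense gene ERCC1 (756 to 975 counts per library, log2 fold change -0.12). Only 0.981% of the 31-base stretches of FOSB transcripts occur in transcripts of other genes, chiefly RINL, so little sequence is shared with ERCC1 transcripts. Reads of unspliced ERCC1 RNA across FOSB could not be told apart without strand.

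JUN (ENSG00000177606, chr1:58780788-58784327), the founding member of its family and a substrate of the JNK kinases, had 50.7, 56.3 and 52.4 CPM in the control libraries and 57.4, 60.9 and 62.0 CPM in the IL17D libraries. The groups were separated by little more than 1 CPM. The log2 fold change was 0.18 (standard error 0.059, unadjusted p = 0.00468, adjusted p = 0.149 from edgeR). JUNB (ENSG00000171223, chr19:12791496-12793315), which often restrains JUN, had 48.1, 45.6 and 40.9 CPM in the control libraries and 52.2, 48.7 and 55.4 CPM in the IL17D libraries. The gap between the highest control and the lowest IL17D library was smaller than the SD of either group (3.63 and 3.36 CPM). Its log2 fold change was 0.21 (standard error 0.067, unadjusted p = 0.00283, adjusted p = 0.112 from edgeR). JUNB lies wholly within the antisense gene HOOK2, and 12.8% of its 31-base stretches occur in other genes, chiefly HOOK2. HOOK2 had 10.2 to 10.9 CPM in control and 11.6 to 11.9 CPM in IL17D libraries (log2 fold change 0.16, adjusted p = 0.678 from edgeR), and whether the counting used strand is not given in the sources used here.

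JUND (ENSG00000130522, chr19:18279760-18281622), the JUN protein of resting cells, showed no rise. It had 162, 157 and 157 CPM in the control libraries and 155, 156 and 156 CPM in the IL17D libraries, with means that differed by little more than the control SD (159 ± 2.59 CPM against 155 ± 0.844 CPM, n = 3 each). The log2 fold change was -0.03 (adjusted p = 0.848 from edgeR), and its 95% interval, -0.11 to 0.05, lay wholly below that of FOSL2, 0.13 to 0.29, and that of FOSL1, 0.15 to 0.40. The control libraries all lay just above the IL17D libraries. Such a separation in the upward direction was shown by 7.48% of all tested genes, and the downward share is not reported here. With a CV of 1.63% in control libraries and 0.543% in IL17D libraries, JUND varied the least of the 9 genes. Counting alone gives 2.01% and 2.02%, so both values lay below counting error.

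ATF3 (ENSG00000162772, chr1:212565334-212620777), a stress-induced partner of JUN that often represses, had 25.7, 26.8 and 22.1 CPM in the control libraries and 27.1, 29.7 and 28.1 CPM in the IL17D libraries. The groups met almost at their edges. The log2 fold change was 0.19 (standard error 0.084, unadjusted p = 0.0327, adjusted p = 0.373 from edgeR). BATF3 (ENSG00000123685, chr1:212686418-212699985), a small bZIP protein best known from dendritic cells, had 8.18, 9.26 and 7.27 CPM in the control libraries and 9.85, 8.70 and 9.60 CPM in the IL17D libraries. The groups overlapped, and the log2 fold change of 0.19 had a 95% interval from -0.08 to 0.46 (adjusted p = 0.659 from edgeR). The highest of the 6 libraries was IL17D replicate 2 for 3 of the 9 genes (FOS, FOSB and ATF3), IL17D replicate 3 for 3 (FOSL2, JUN and JUNB), IL17D replicate 1 for 2 and a control library for 1 (JUND).

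Levels of different genes were compared as CPM per kb of exon length. In control cells JUND led with 85.2 ± 1.39 CPM per kb, followed by FOSL2 (25.9 ± 1.05), JUNB (24.7 ± 2.0), FOSL1 (23.8 ± 0.969), JUN (15 ± 0.816), ATF3 (6.16 ± 0.615), BATF3 (3.04 ± 0.367), FOS (1.98 ± 0.0871) and FOSB (0.403 ± 0.0507; SD, n = 3 each). FOSL2, JUNB and FOSL1 overlapped with their neighbours in this order, and the other neighbours did not. In IL17D cells FOSL1 (28.7 ± 1.03) and JUNB (28.6 ± 1.85) traded places within their spread, and BATF3 and FOS overlapped, at 3.46 ± 0.223 and 2.48 ± 0.643 CPM per kb. FRA1 and FRA2 transcripts thus outnumbered those of FOS and FOSB in both groups.

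The summed level of the 9 genes was 189, 187 and 182 CPM per kb in the control libraries and 199, 201 and 203 CPM per kb in the IL17D libraries. The IL17D libraries were all above the control libraries, by a ratio of 1.08 between the means. The 4 FOS genes together went from 52.0 ± 0.0983 to 61.6 ± 1.12 CPM per kb, a ratio of 1.18, and the 3 JUN genes from 125 ± 2.95 to 129 ± 2.14 CPM per kb, a ratio of 1.03 (SD, n = 3 each). The FOS genes made up 28.0% ± 0.602 of the family in control cells and 30.6% ± 0.616 in IL17D cells, and the JUN genes 67.1% ± 0.377 and 64.2% ± 0.655.

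By gene, the largest shift was that of JUND, which held 46.0%, 45.0% and 46.4% of the family sum in the control libraries and 41.6%, 41.6% and 41.2% in the IL17D libraries. Its share was 4.32 percentage points lower in IL17D cells, with no overlap between the groups. FOSL1 held 12.8% ± 0.449 in control and 14.3% ± 0.649 in IL17D cells, and FOSL2 13.9% ± 0.723 and 14.9% ± 0.308 (SD, n = 3 each). The shares of these 3 genes did not overlap between the groups, which gives p = 0.1 in a two-sided exact permutation test, the smallest value that 3 libraries against 3 allow. The shares of the other 6 genes overlapped (exact permutation p = 0.2 to 0.7). FOS took 1.07% ± 0.0654 in control and 1.23% ± 0.317 in IL17D cells, a difference that turned from 0.168 to -0.0125 percentage points without IL17D replicate 2. Shares add up to a whole, so a share can fall while the transcript itself keeps its level, as the CPM of JUND show.

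**Figure D3:**
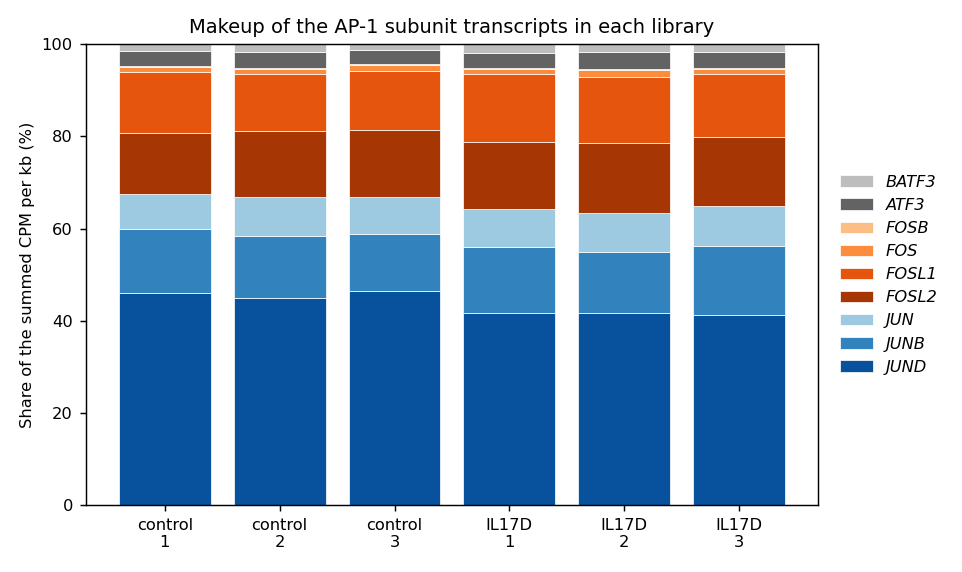
Share of each AP-1 subunit gene in the summed CPM per kb of the 9 genes, in percent, as 1 stacked bar for each of the 3 control and 3 IL17D libraries. The JUND segment is 45.0% to 46.4% in control and 41.2% to 41.6% in IL17D libraries, and the FOSL1 and FOSL2 segments widen.

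The AP-1 subunit genes were then set beside 6 lists of genes around them. The transcripts of the MAP kinases and their substrate kinases that act on AP-1 had a median near 0. All 24 genes of that list were tested, none was called in either direction by edgeR, DESeq2 or limma voom, and the median log2 fold change was -0.01. At an unadjusted p under 0.05, 0 were higher and 5 lower, against 5.99% of all tested genes that were lower, and the smallest p was that of RPS6KA3, which encodes the kinase RSK2 (177 ± 8.21 CPM in control, 164 ± 3.86 CPM in IL17D cells, adjusted p = 0.197 from edgeR). MAPK14, which encodes p38 alpha, had 52.5 CPM in control and 51.8 CPM in IL17D cells. The other genes lower at an unadjusted p under 0.05 were MAP2K5, MAPKAPK2, MAPK13 and MAP2K6 (adjusted p = 0.293 to 0.431 from edgeR). Of these, MAPK13, MAPKAPK2 and MAP2K6 belong to the p38 branch. They had 1.66, 65.6 and 20.8 CPM in control and 0.937, 59.9 and 18.1 CPM in IL17D cells. MAPK13 rests on 8 to 29 counts per library. Within the same branch, MAP2K3, MAPKAPK3 and MAPK11 had log2 fold changes above 0 (0.09, 0.08 and 0.07, adjusted p = 0.457 to 0.867 from edgeR). MAP2K3 had 103 CPM in control and 109 CPM in IL17D cells, with no overlap between the groups. MAPK12, also of this branch, had a log2 fold change of -0.04. The p38 genes thus went in both directions. Transcript levels do not measure the phosphorylation through which these kinases act.

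Of 17 factors that transcribe FOS and JUN, 16 were tested and none was called by edgeR, DESeq2 or limma voom. At an unadjusted p under 0.05 (edgeR), 2 were higher and 1 lower, against 5.59% and 5.99% of all tested genes. The log2 fold change was above 0 for 12 and below for 4, with a median of 0.051. MRTFA, the actin-regulated cofactor of serum response factor, had the smallest p (log2 fold change -0.12, adjusted p = 0.294 from edgeR, and 0.0299 without control replicate 3). Serum response factor itself, SRF, had 55.4 and 59.5 CPM, and ELK1, its MAP kinase-regulated partner, 49.9 and 54.9 CPM. Among 12 genes for the turnover of AP-1 RNA and protein, none was called by the same 3 tools. At an unadjusted p under 0.05 (edgeR), 1 was higher and 0 lower, against the same shares of all tested genes. The log2 fold change was above 0 for 8 and below for 4, with a median of 0.031. The smallest p was that of FBXW7, which encodes a ubiquitin ligase subunit that marks JUN for degradation (16.8 and 19.4 CPM, adjusted p = 0.384 from edgeR).

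Of 13 other bZIP genes, 10 were tested, and the median was 0.019. Among them 1 rose and 0 fell, against 0.673% and 0.908% of all tested genes. The gene called was MAFK, a small MAF protein without an activation domain, with 325 ± 27.3 CPM in control and 364 ± 21.5 CPM in IL17D cells (SD, n = 3 each; log2 fold change 0.17, adjusted p = 0.0395 from edgeR). Its groups overlapped, since control replicate 2 (353 CPM) lay above IL17D replicate 2 (342 CPM), and its call was lost with DESeq2 (adjusted p = 0.542) and without control replicate 1 or 3 or IL17D replicate 1 or 3.

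AP-1 target genes went in both directions. Of 30 listed, 21 were tested, and the median was 0.024. Among them 11 had a log2 fold change above 0 and 10 below, where 49.9% of all tested genes lay above 0. PTGS2, which encodes the prostaglandin synthase COX-2, was the gene that passed, with 28.6, 27.7 and 27.6 CPM in the control libraries and 31.5, 37.2 and 34.0 CPM in the IL17D libraries (adjusted p = 0.0420 from edgeR). It did not pass with DESeq2 (adjusted p = 0.0788) or limma voom (adjusted p = 0.0513), each of which called 1 target gene higher that edgeR did not, nor in edgeR without any control library or without IL17D replicate 2 or 3. Among the others, CCL2 (30.0 and 35.4 CPM), HBEGF (3.71 and 5.46 CPM), PLAUR (22 and 25.4 CPM) and CXCL8 (24.2 and 28.7 CPM) were higher at an unadjusted p under 0.05, and SPP1 (265 and 242 CPM) and CD44 (546 and 523 CPM) were lower. Among the proteases, PLAU had 78.0 and 82.2 CPM (adjusted p = 0.643 from edgeR), and MMP1, MMP3, MMP9, MMP10 and MMP13 below the limit for testing.

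Of 23 other immediate early genes, all 21 tested had a log2 fold change above 0 (49.9% of all tested genes), with a median of 0.16. In edgeR, 8 rose and 0 fell at an adjusted p under 0.05, against 0.673% and 0.908% of all tested genes. None was lower at an unadjusted p under 0.05, nor was any called lower with DESeq2 or limma voom. The list was chosen with earlier results of these data known. The number called higher was 5 without control replicate 2, IL17D replicate 2 or IL17D replicate 3. NR4A1, an orphan nuclear receptor, had 40.7, 39.3 and 40.7 CPM in the control libraries and 55.8, 54.0 and 54.9 CPM in the IL17D libraries (log2 fold change 0.45, adjusted p = 9.22e-06 from edgeR). MYC (log2 fold change 0.24), KLF10 (0.25), MCL1 (0.16), NR4A3 (0.57) and CYR61 (0.21) were the next by p, with adjusted p-values of 6.26e-05 to 0.0115 from edgeR. Leaving out single libraries ended the call of KLF10 (IL17D replicate 3), NR4A3 (control replicate 1 or IL17D replicate 2) and CYR61 (control replicate 2, IL17D replicate 1 or IL17D replicate 3). EGR1, which is switched on through serum response factor as FOS is, had 7.02, 6.64 and 5.97 CPM in the control libraries and 9.06, 12.5 and 8.13 CPM in the IL17D libraries (adjusted p = 0.0297 from edgeR). As for FOS, its highest value was in IL17D replicate 2, and unlike FOS its groups did not overlap. DUSP1, a phosphatase of MAP kinases, was the remaining called gene (159 and 177 CPM, adjusted p = 0.0461 from edgeR). With DESeq2, 6 genes of the list were called, without EGR1 (adjusted p = 0.0722) and DUSP1 (adjusted p = 0.0519), and with limma voom 7, without EGR1 (adjusted p = 0.0565). In edgeR, EGR1 lost its call without control replicate 2 or 3 or IL17D replicate 2, and DUSP1 without any single library other than control replicate 3.

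**Figure D4:**
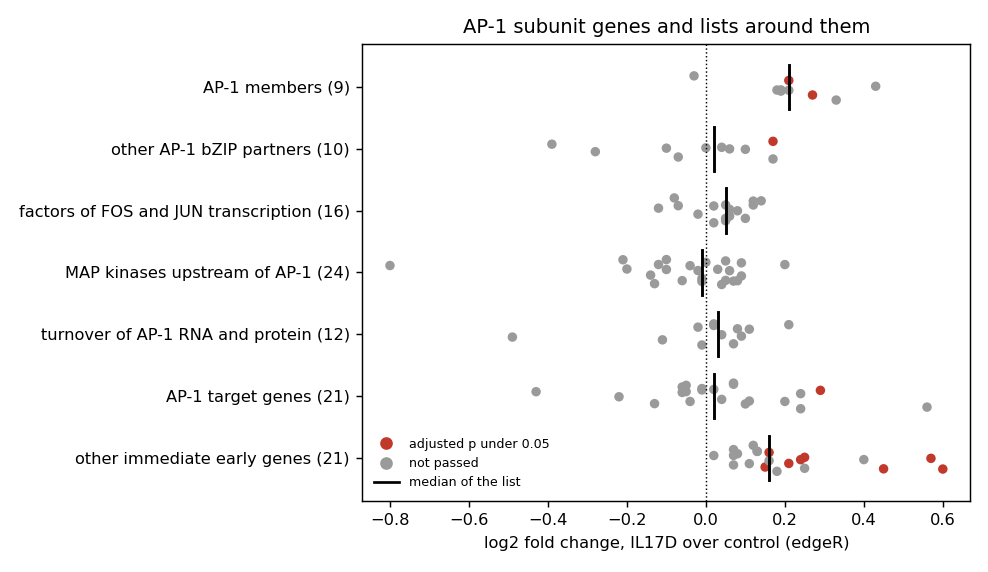
Log2 fold change, IL17D over control, of the tested genes among the AP-1 subunits and in 6 surrounding lists, with the number of tested genes in brackets, called genes in red and each list's median as a black bar; vertical scatter within a row has no meaning. The medians of the subunits (0.21) and of the other immediate early genes (0.16) lie to the right of 0, and that of the MAP kinases is -0.01.

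The genes whose profile over the 6 libraries was closest to FOSL1, by the root mean square difference of log2 CPM centred on the control mean, were HSPA2 (0.0244) and MICALL2 (0.0267), among 9735 genes with a mean of at least 10 CPM. HSPA2, a chaperone of the HSP70 family, had 139 ± 3.59 CPM in control and 170 ± 6.61 CPM in IL17D cells, and MICALL2 43.7 ± 2.74 and 53.2 ± 2.98 CPM. Closest to FOSL2 were TADA1 (0.0256), with 13.9 ± 0.616 and 16.1 ± 0.937 CPM, and SHANK2 (0.0271), with 58.2 ± 1.35 and 67.1 ± 3.40 CPM (SD, n = 3 each). HSPA2 (adjusted p = 2.27e-05 from edgeR) and MICALL2 (0.0103) passed, and TADA1 did not (0.404). SHANK2 passed narrowly in edgeR (0.0495) but not with DESeq2 (adjusted p = 0.086) or limma voom (adjusted p = 0.0585). Such likeness over 6 libraries of a pair of groups follows largely from a similar difference between the groups.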

How the data were processed

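RNA-seq was performed on 3 IL17D-overexpressing and 3 empty-vector A549 libraries, grouped by the sample labels. The authors deposited 1 table of raw read counts per gene, without normalization. The submitters' processing notes name Bowtie2 and hg38, with no role given; the counting tool and its strand setting are not given in the sources used here. All 58735 genes carry GENCODE 29 coordinates, and the deposited gene length equals the summed exon length of the 9 genes studied. The members, gene lists and tests were chosen with earlier results of these data known.

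Counts were analysed in R 4.3.3 with edgeR 4.0.16 (filterByExpr, TMM, glmQLFit and glmQLFTest, two-sided, no covariate), with Benjamini-Hochberg adjustment over 15754 genes. Standard errors were derived from the F statistic, and intervals are at 95%. Alternatives were DESeq2 1.42.0 size factors in edgeR, the DESeq2 Wald test, limma 3.58.1 voom, no filter, a minimum of 10 counts per library, a block for the replicate number, and the omission of single libraries. Shares were taken from CPM per kb and compared by exact permutation (scipy 1.17.1). The steps were tested on simulated data. A limit of 3 counts stands for a count of 0 and covers counting error only. No library was left out, and libraries of a group differed by more than counting noise (chi-square per degree of freedom 2.16 to 3.18). Named genes are the 9 members, IL17D, up to 6 called genes of each list by p (or the gene with the smallest p where none was called), all markers, and the 2 closest profiles to each called member, using log2 of CPM plus 1. Members of the lists named beyond this rule were chosen after their values were seen. Values of some list genes are not reported here.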

Additional observations from a re-analysis of the deposited data

How the results depend on the processing

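The 9 genes kept their direction under all 12 alternatives of each fit, and FOSL2 kept its call. Leaving out 1 library, the log2 fold change of FOSL1 ranged from 0.24 to 0.31, and the called members numbered 1 to 2. In the same fits the lists had 0 to 1 called bZIP partners higher, 0 to 1 transcription factors lower, 0 to 1 target genes higher, 0 to 1 target genes lower and 5 to 8 immediate early genes higher. With the DESeq2 Wald test, 0 bZIP partners were called, and with no filter on low counts, 1 target gene was called lower (likewise without control replicate 3). Taken from summed counts without gene length, the difference in share was 0.772 percentage points for FOSL1, 1.6 for FOSL2 and -3.46 for JUND, because longer genes weigh more. Leaving out 1 library, these differences ranged from 1.16 to 1.81, from 0.555 to 1.21 and from -4.70 to -4.02, and that of FOS from -0.0125 to 0.286. The length of the longest coding transcript, an alternative chosen after the data were seen, kept all 9 directions (JUND -4.19).

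Replicate numbers did not pair the libraries: deviations of same-numbered libraries from their group means correlated at 0.0726, -0.112 and -0.0682 over 9741 genes. The replicate block left the called members at 2, with log2 fold changes of 0.27 for FOSL1 and 0.21 for FOSL2. FOS (89 to 171 counts) and FOSB (29 to 59 counts) had the lowest mean counts of the 9 genes, and both varied by more than counting error in the IL17D libraries.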
